A study of Mus musculus with 12 samples.

Results

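The mitochondrial genome, named MT in the files, gave 62 of the 23413 m1A peaks called across 6 pull-down libraries of the mouse caudate putamen, the dorsal part of the striatum. Its members were chosen by position, as every called peak on MT, and each was assigned by its summit to the 37 RefSeq genes there: 13 mRNAs, 2 rRNAs and 22 tRNAs. KO 1, 2 and 3 held 11, 12 and 6 of these peaks, and controls 1, 2 and 3 held 10, 12 and 11. In all, 59 summits lay in a gene, every one of them an mRNA gene, and 3 lay in the non-coding control region past the last gene. Positions are counted from 1 on MT of GRCm38.

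The 3 KO libraries (Tet1 delta/delta) came from adult male Tet1 fl/fl mice injected in the caudate putamen with AAV-Cre-EGFP. The 3 control libraries (Tet1 fl/fl) came from mice of the same sex and floxed genotype injected with AAV-EGFP. Tissue was taken 2 weeks after injection in both groups. TET1 oxidises 5-methylcytosine in DNA. The deletion is limited to the cells the virus reached, and the labels state neither which share of the tissue that was, nor whether the numbered libraries came from separate animals, so p-values measure only the spread between these libraries. In pieces of tissue, fewer cells of a type and less RNA per cell cannot be told apart.

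m1A is adenosine methylated at the N1 position. In mitochondria it is best known in tRNAs, where TRMT10C (with HSD17B10) and TRMT61B place it, and in the 16S rRNA, a target of TRMT61B. In human cells TRMT10C also methylates the ND5 mRNA. Both strands of the mitochondrial genome are copied into long precursors from promoters in the control region, and the excision of the tRNAs frees most mRNAs. Of the mRNAs, ND6 alone is encoded on the light strand. The proteins are core subunits of respiratory chain complexes I (ND genes), III (CYTB) and IV (COX genes) and of ATP synthase (ATP6, ATP8).

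Peak calling rested on 1235247, 2508102 and 1336328 tags of the pull-downs in KO 1, 2 and 3, against 459332, 1097292 and 864206 in controls 1, 2 and 3. Duplicate tags were all kept for control 1, whereas for the other 5 libraries at most 1 tag per position and strand was. That rule limits how high a pileup, the number of tags over a summit, can rise: the ceiling is the fragment length on each strand, which comes to 326 to 354 tags. Mitochondrial summits in those 5 libraries filled 13.2% (ND2 in KO 1) to 72.0% (ND5 in KO 2) of it. Of 12 markers of medium spiny neurons, the main neurons of this tissue, 10 had a peak in at least 1 library, while Drd1 and Tac1 had none. Markers of other cell types were called as well, 4 of 5 for oligodendrocytes, 3 of 6 for astrocytes, 3 of 4 for endothelium and 1 of 5 for microglia, beside 26.2% of all protein-coding genes.

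By their medians, mitochondrial peaks stood out in tag coverage and not in fold enrichment. The median pileup of mitochondrial peaks was 80, 150.5 and 81.5 tags in KO 1, 2 and 3 and 66, 117.5 and 82 in controls 1, 2 and 3. All other peaks had medians of 17, 17 and 19 in KO and 4, 19 and 18 in control libraries. The median fold enrichment, the authors' ratio of pileup to local background, was 3.40, 4.35 and 3.28 for mitochondrial peaks in KO 1, 2 and 3 and 4.45, 6.71 and 6.23 in controls 1, 2 and 3. For all other peaks it was 7.18, 7.24 and 7.53 in KO and 4.65, 7.16 and 7.19 in control libraries. So in every library the mitochondrial median lay above the rest in pileup and below it in fold enrichment. Where at most 1 tag per position was kept, the ceiling on pileups also bounds the fold, more tightly at a higher local background. Whether that has a part in the lower folds was not tested. Between 3 (KO 3) and 12 (KO 2) mitochondrial peaks ranked among the 100 highest pileups of their list, and none ranked among the 100 strongest folds. Fold enrichments and pileups belong to single peaks of separately called lists, so they are described here and not tested between lists.

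The number of mitochondrial peaks overlapped between the genotypes, with 9.67 ± 3.21 in KO and 11 ± 1 in control libraries (SD, n = 3 each, two-sided exact permutation p = 0.9). Per 1000000 pull-down tags used it was 8.91, 4.78 and 4.49 in KO 1, 2 and 3 and 21.8, 10.9 and 12.7 in controls 1, 2 and 3, without overlap (difference in means −9.09, exact permutation p = 0.1, n = 3 each). Each KO pull-down was also deeper than each control pull-down, and whether depth has a part in this order was not tested. Among peaks enriched 4-fold or more the means were 4 in KO and 8 in control libraries (exact permutation p = 0.2, n = 3 each). Their share of all peaks in a library was 0.291%, 0.173% and 0.196% in KO 1, 2 and 3 and 0.315%, 0.348% and 0.366% in controls 1, 2 and 3. The groups did not overlap, KO being lower, and the means were 0.220 ± 0.0625% in KO and 0.343 ± 0.0262% in control libraries (exact permutation p = 0.1, n = 3 each). A p of 0.1 is the smallest that 3 libraries against 3 can give, so no such test could pass 0.05. The difference in share was −0.123 percentage points over whole lists and −0.0444 over lists of equal length (exact permutation p = 0.9, n = 3 each). Lists of equal length kept every mitochondrial peak, so that second value only restates the difference in peak number. Whether list length has a part in the difference in share was not tested. Keeping only peaks with a −log10 q of 5 or more gave −0.283, and keeping those enriched 4-fold or more gave −0.226. KO 3 set the lower peak number in KO libraries, and without it the difference in number was 0.5 in place of −1.33.

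Peaks covered 18.4%, 53.3% and 9.11% of the 15422 annotated bases in KO 1, 2 and 3, against 16.9%, 46.2% and 45.6% in controls 1, 2 and 3. The groups overlapped, since KO 2 covered most and control 1 lay below KO 1. The means were 26.9 ± 23.3% in KO and 36.3 ± 16.7% in control libraries (SD, n = 3 each, exact permutation p = 0.7). The difference of −9.33 percentage points became −22.5 without KO 2, −19.0 without control 1 and −0.419 without KO 3, and −5.05 without KO 1. It was −4.36 without control 2, −4.63 without control 3 and −32.2 without both control 1 and KO 2, where the means were 13.7% in KO and 45.9% in control libraries. KO 3 used more tags than control 3 and had 6 mitochondrial peaks where control 3 had 11. The number of mRNA genes with a summit was 7, 8 and 4 in KO 1, 2 and 3 and 7, 10 and 9 in controls 1, 2 and 3. The means were 6.33 ± 2.08 in KO and 8.67 ± 1.53 in control libraries (SD, exact permutation p = 0.3, n = 3 each). The difference in means, −2.33 genes, was −1.17 without KO 3 and −4.67 over peaks enriched 4-fold or more.

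**Figure D1:**
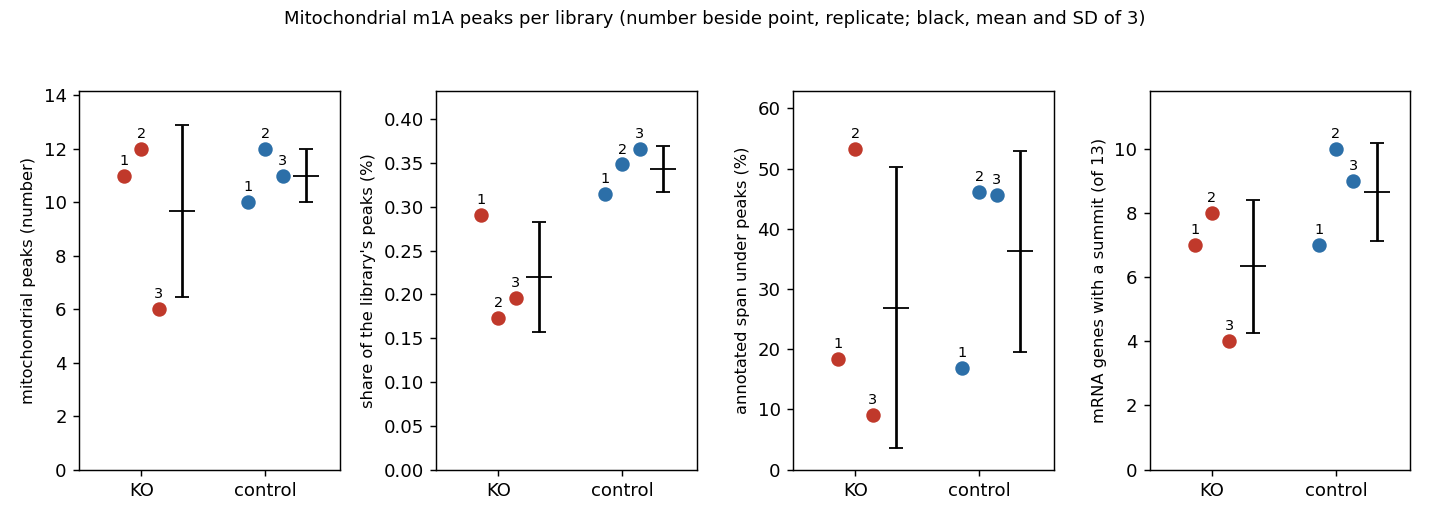
Mitochondrial peaks per library, their share of the library's peaks, the share of the 15422 annotated bases under them and the number of mRNA genes with a summit; points are libraries with their replicate number, black marks the mean and SD of 3. Only the share of peaks keeps KO (0.173% to 0.291%) apart from control (0.315% to 0.366%).

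On the mitochondrial genome, each library but KO 2 had its highest Jaccard index of called bases with a library of its own genotype. Controls 2 and 3 shared nearly all of their called bases, with a Jaccard index of 0.923, and KO 2 reached 0.757 with control 2 and 0.731 with control 3. KO 2 shared far less with the other KO libraries, at 0.324 with KO 1 and 0.151 with KO 3. KO 1 and KO 3 reached 0.475 with each other, and control 1 0.366 and 0.370 with controls 2 and 3. The index also depends on how many bases each library covers: 53.3% of the annotated bases in KO 2, against 18.4% and 9.11% in KO 1 and 3. Whether this has a part in the order was not tested.

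Merged where peaks shared at least 1 base, the 62 peaks formed 11 regions, none of which was called in a single library only. Of these, 3 were called in all 6 libraries, in ND1, in ATP8 and ATP6, and across ND5, ND6 and the first bases of TrnE. Over the whole genome, 2.96% of 13572 regions were called in all 6. The bases called in every library were fewer: 225 bases of ND1, from 3350 to 3574, and 549 bases over the end of ND5 and most of ND6, from 13476 to 14024. By summit, 10 of the 13 mRNA genes were called in at least 1 library, beside 26.2% of all protein-coding genes. ND1, COX1 and ATP6 were called in all 6, where 8.11% of all genes with a summit anywhere were.

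**Figure D2:**
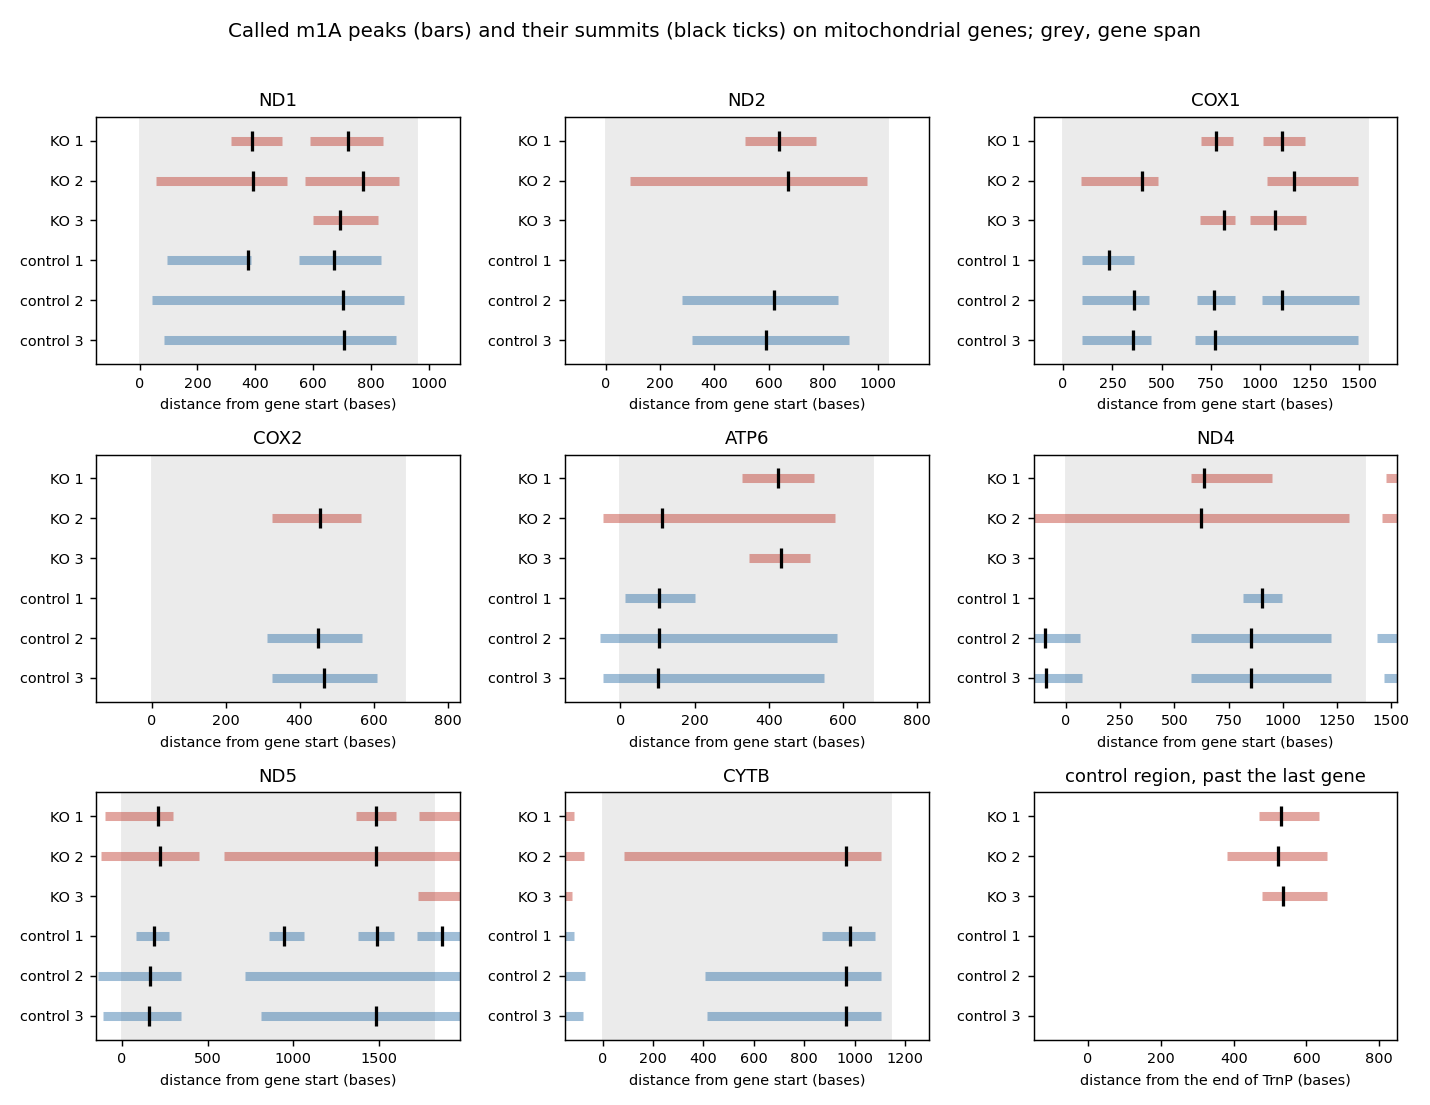
Called peaks (bars) and summits (black ticks) in each library over 8 mRNA genes and the control region, as distance in bases from the gene's start or from the end of TrnP; grey marks the gene span and red and blue mark KO and control libraries. ND1 carried a peak in all 6 libraries, and the control region in KO 1, 2 and 3 alone.

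The 7 complex I mRNAs held 34 of the 62 peaks, 15 in KO and 19 in control libraries. That is 57.6% of the peaks with a summit in a gene, near their 55.9% of the mRNA bases. ND1 encodes a membrane subunit of complex I next to the site where it binds ubiquinone. A summit between 3423 and 3521, 672 to 770 bases into the 957-base gene, was called in every library. There the fold enrichment was 7.05, 6.49 and 4.84 in KO 1, 2 and 3, against 14.6, 13.5 and 17.2 in controls 1, 2 and 3. All 3 KO values lay below all 3 control values. The pileup was 80, 116 and 63 tags in KO 1, 2 and 3 and 175, 162 and 150 in controls 1, 2 and 3. The KO pileups were thus lower as well, although the caller used more tags in each KO than in any control library. The local background, worked back from the pileup and the fold, was 10.49, 17.02 and 12.2 tags in KO and 11.04, 11.04 and 7.76 in control libraries, which overlapped. By fold, this ND1 peak was the strongest mitochondrial peak in KO 1, KO 3 and controls 1, 2 and 3, whereas in KO 2 the ND2 and CYTB peaks exceeded it. In the whole list it ranked 1930 of 3782, 4374 of 6947 and 2666 of 3057 in KO 1, 2 and 3 and 134 of 3179, 304 of 3444 and 108 of 3004 in controls 1, 2 and 3. The lists differ in length, so these ranks are described and not tested as a change.

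A separate ND1 summit between 3125 and 3142 was called in KO 1, KO 2 and control 1, with folds of 4.06, 4.33 and 2.30. Controls 2 and 3 had single long peaks of 872 and 804 bases that covered both ND1 summits, and KO 3 had no call at the upstream one. ND1 was under peaks over 45.0%, 81.4% and 23.5% of its length in KO 1, 2 and 3 and over 60.3%, 91.1% and 84.0% in controls 1, 2 and 3.

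The region from 12338 to 14074, over ND5, which encodes a proton-pumping membrane subunit of complex I, and ND6 was also called throughout. Its strongest fold enrichment was 4.27, 4.29 and 3.60 in KO 1, 2 and 3 and 6.12, 7.69 and 5.41 in controls 1, 2 and 3, without overlap. The summits of these peaks lay at 13800, 13226 and 13801 in KO 1, 2 and 3. In controls 1, 2 and 3 they lay at 13611, 13770 and 13226, so unlike ND1 the values belong to different places. Of the 402 regions called in all 6 libraries genome-wide, 16.2% had every KO fold below every control fold and 2.74% had the opposite order. The mitochondrial count, 2 of 3 regions with ATP6 as the exception, is a description of 3 regions. The strongest pileup overlapped between the groups in all 3 of them; genome-wide, 2.49% of the 402 regions had every KO pileup below every control pileup and 19.7% the opposite. Within ND5 a summit recurred almost to the base: it fell at 13227 and 13226 in KO 1 and 2 and at 13231 and 13226 in controls 1 and 3, 1484 to 1489 bases into the 1824-base gene. Its folds were 3.01 and 4.29 in KO 1 and 2 and 3.80 and 5.41 in controls 1 and 3, which overlapped. Control 2 covered the position with a peak whose summit lay in ND6, and KO 3 had no call there.

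ND6, the only light-strand mRNA, had all of its 519 bases under a peak in KO 2 and in control 2. In the other libraries peaks covered 92.5% and 91.1% of it in KO 1 and 3 and 92.9% and 99.2% in controls 1 and 3. It was the most completely covered mRNA gene in each of the 6 libraries. Summits fell at 13800 and 13801 in KO 1 and KO 3, and at 13611 and 13770 in controls 1 and 2. The peak lists hold no strand, so ND6 RNA and the heavy-strand RNA that runs past ND5 on the same bases cannot be told apart.

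At the start of ND5 a summit between 11900 and 11962 was called in 5 libraries. Its fold was 3.40 and 5.02 in KO 1 and 2 and 6.13, 10.1 and 9.82 in controls 1, 2 and 3, with no call in KO 3. Pileups were 60 and 157 tags in KO 1 and 2 and 61, 129 and 95 in controls 1, 2 and 3, so they overlapped where the folds did not. ND4, another proton-pumping subunit, had folds of 3.32 and 4.37 in KO 1 and 2, against 4.52, 4.80 and 5.28 in controls 1, 2 and 3. The ND4 summits differed in place: they lay at 10801 and 10788 in KO 1 and 2 and at 11069, 11022 and 11020 in controls 1, 2 and 3. The KO 1 and KO 2 peaks, 374 and 1522 bases long, both took in the control summits as well.

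ND2 and ND4L, also subunits of complex I, were called less widely. ND2 had summits at 4550 and 4586 in KO 1 and 2, with folds of 3.71 and 7.65, and at 4533 and 4504 in controls 2 and 3, with folds of 7.90 and 8.44. KO 3 and control 1 had no call in ND2. ND4L held summits in controls 2 and 3 only, with folds of 5.73 and 6.23, while in KO 2 it lay under the long ND4 peak. ND3 had no peak on any of its bases in any library.

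CYTB, the mitochondrially encoded cytochrome of complex III, was called in 1 KO library and all 3 control libraries. Its summit lay between 15109 and 15126, 964 to 981 bases into the 1144-base gene. The fold was 7.49 in KO 2 and 5.17, 9.30 and 9.62 in controls 1, 2 and 3, and the pileup 138 tags in KO 2 and 33, 85 and 68 in controls 1, 2 and 3. KO 1 and KO 3 had no peak anywhere in CYTB. Genes with a summit in more control than KO libraries made up 30.9% of all genes with a peak. Among the 10 mitochondrial genes with a summit they were ND4, ND5, CYTB, COX2 and ND4L. No mitochondrial gene had a summit in all 3 control and no KO library, beside 0.856% of genes with a summit in any library. None had a summit in all 3 KO and no control library either (1.74% of genes with a summit), nor in more KO than control libraries.

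**Figure D3:**
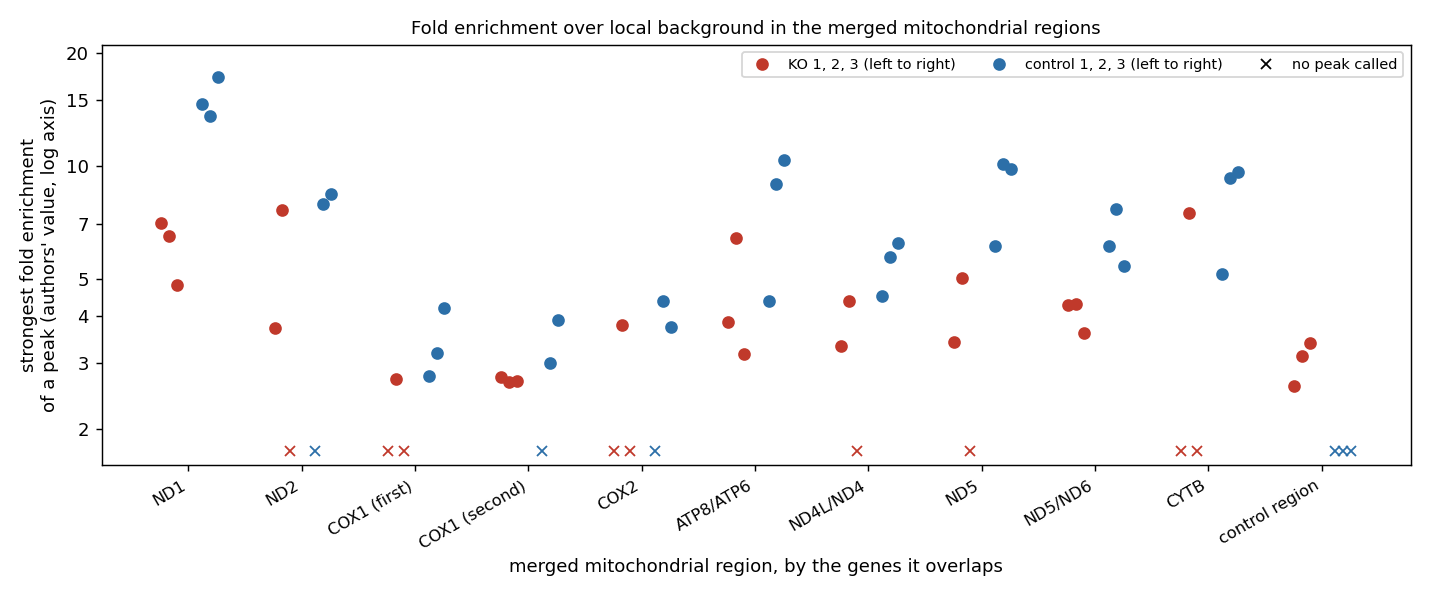
Strongest fold enrichment of a peak (authors' ratio, log axis) in each of the 11 merged mitochondrial regions, KO libraries in red left of control libraries in blue, with crosses where no peak was called. Of the 3 regions called in all 6 libraries, KO folds lay below control folds without overlap in ND1 and ND5/ND6, and overlapped in ATP6. The ND1 folds were 4.84 to 7.05 and 13.5 to 17.2, and the ND5/ND6 folds came from summits at different places. Where some libraries had no call, the called KO folds also lay below the called control folds in ND2, both COX1 regions, ND4L/ND4 and the start of ND5. They overlapped in COX2 and CYTB.

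Among the complex IV mRNAs, COX1 combined high coverage with low fold enrichment. COX1 encodes the catalytic core of cytochrome c oxidase and held merged regions from 5419 to 5810 and from 5997 to 6828. The first had folds of 2.71 in KO 2 and 2.76, 3.19 and 4.20 in controls 1, 2 and 3. In the second, a summit between 6091 and 6144 had folds of 2.74 and 2.67 in KO 1 and 3 and 3.00 and 3.90 in controls 2 and 3. Further summits of that second region, between 6403 and 6497, were called in KO 1, 2 and 3 with folds of 2.44, 2.66 and 2.37 and in control 2 with 3.00. Their positions lay inside a longer peak of control 3. The highest local background at any mitochondrial summit was in COX1 in each of the 6 libraries, at 54.7, 66.9 and 56.6 tags in KO 1, 2 and 3 and 31.6, 51.1 and 35.2 tags in controls 1, 2 and 3. COX1 was also the weakest mitochondrial peak by fold in KO 1, 2 and 3 and in control 2, whereas it held the highest pileup, 152 and 153 tags, in KO 1 and 3. COX2, which carries the copper site that accepts electrons from cytochrome c, had folds of 3.78 in KO 2 and 4.36 and 3.73 in controls 2 and 3. COX3 had no called base in any library.

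**Figure D4:**
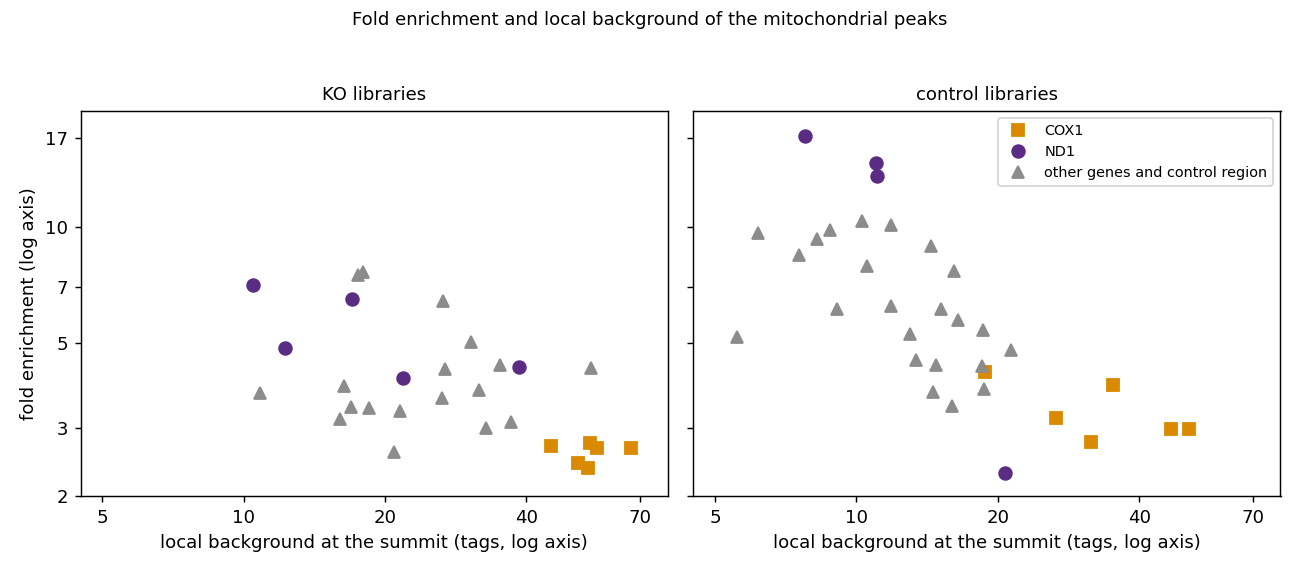
Fold enrichment against the local background in tags at the summit (both log axes) for the 29 mitochondrial peaks of KO libraries, left, and the 33 of control libraries, right, with COX1 as squares, ND1 as circles and all others as triangles. COX1 peaks lie at the high-background, low-fold end in both panels, and the ND1 peaks above 13-fold are all from control libraries.

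ATP6, the subunit of ATP synthase that forms its proton channel, was called in all 6 libraries, at differing positions. In KO 2 and controls 1, 2 and 3 the summit lay between 8028 and 8038, within 10 bases, with folds of 6.44 in KO 2 and 4.37, 8.94 and 10.4 in controls 1, 2 and 3. In KO 1 and 3 it lay at 8352 and 8360, with folds of 3.86 and 3.17, and no peak covered the upstream position. ATP8, which overlaps the start of ATP6, held no summit, and peaks reached into it in KO 2 and in controls 1, 2 and 3.

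No peak touched the 12S or the 16S rRNA gene in any library, and none of the 22 tRNA genes held a summit. The first called base of the mitochondrial genome was at 2793, in ND1. Ribosomal RNA was depleted before library preparation, per the labels' protocols, so a missing rRNA peak is no measure of its m1A. The tRNA genes span 59 to 75 bases, fewer than the fragment lengths of 163 to 177 bases in peak calling. Whether that has a part in the missing tRNA summits was not tested, and these are no measure of tRNA m1A either. Peaks reached into 4 tRNA genes. TrnL2 lay wholly under a peak in KO 1, KO 2, control 2 and control 3, as part of the peak at the start of ND5, and TrnS2 was covered over 50.8% and 84.7% in KO 1 and 2, over 67.8% in control 3 and wholly in control 2. TrnH was touched in control 2 alone, and TrnE over 4.35% and 5.80% of its bases in KO 2 and control 2. Called bases made up 76.3% of mRNA bases, 9.80% of tRNA bases and 0% of rRNA bases over all libraries together.

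The control region, the non-coding stretch that holds the promoters of both strands, was the 1 mitochondrial region of 11 called in the 3 KO libraries and in no control library. The region ran from 15805 to 16079, and 159 of its bases, from 15900 to 16058, were common to the KO peaks. Summits fell at 15954, 15945 and 15959 in KO 1, 2 and 3, within 14 bases. The fold enrichment was low, 2.60, 3.13 and 3.38, with pileups of 56, 118 and 65 tags and −log10 q-values of 6.53, 21.8 and 12.8. Over the whole genome 1.41% of regions were called in all KO and no control libraries, and 0.796% the other way. On the mitochondrial genome the counts were 1 and 0 of 11 regions. A missing call in the controls shows neither that RNA nor m1A was absent there, and each control pull-down was shallower than each KO pull-down. All 3 folds were under 4, so the region was lost at a fold enrichment of at least 4.

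Part of the mitochondrial genome has a copy in the nuclear genome, and the copy was called too. Gm10925, annotated as a pseudogene with mt-Atp6 among its synonyms, lies on chromosome 1 from 24613971 to 24614651 and is 681 bases long, like ATP6. Gm10222, from 24612404 to 24612700, has the 297 bases of ND4L. The 2 pseudogenes are 1271 bases apart, against 1270 for ATP6 and ND4L, and stand in the opposite order, so positions in the copy mirror those on MT (GRCm38, no sequence compared). Both had summits in all 6 libraries. In all, 27 peaks were called between 24611580 and 24616172, 6, 4 and 3 in KO 1, 2 and 3 and 4, 5 and 5 in controls 1, 2 and 3. Mirrored onto MT they ran from 6406 to 10998, and 20 of the 27 summits fell within 25 bases of a mitochondrial summit of some library, 12 of them in the same library.

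**Figure D5:**
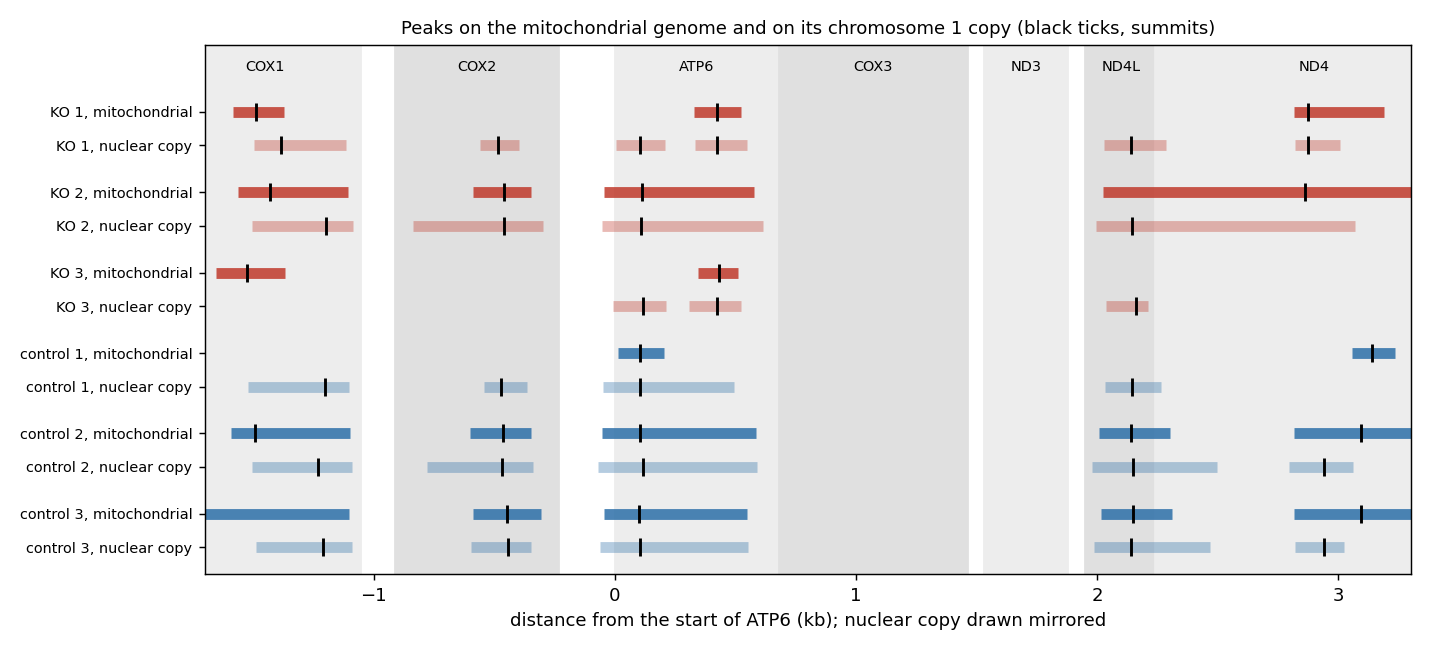
Peaks on the mitochondrial genome (dark bars) and on the mirrored chromosome 1 copy (pale bars) in each library, with summits as black ticks, against distance from the start of ATP6 in kb. Of 27 copy peaks, 19 overlap a mitochondrial peak of the same library, and COX3 and ND3 are bare in both.

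Some calls missing from MT in a library were present at the mirrored place in the copy. At the upstream ATP6 position, KO 1 and KO 3 had copy summits that mirror to 8033 and 8043, although neither had a mitochondrial peak there. All 6 libraries had a copy summit that mirrors into ND4L, and KO 1 and controls 1, 2 and 3 as well as KO 2 had one that mirrors into COX2. How reads that match both loci were placed is not given in the sources used here. A call on MT alone is therefore uncertain for COX2, ATP8, ATP6, ND4L and the parts of COX1 and ND4 in the copy. The same limit holds for the missing calls in COX3 and ND3, which lie between ATP6 and ND4L. No copy peak mirrored into ND1, ND2, ND5, ND6 or CYTB. Copy peaks were searched for only within 5000 bases either side of Gm10925 and Gm10222. That window does not reach the mirrored place of the control region, the start of ND1 or the end of CYTB. A copy peak there could not have been found, and how far the copy itself extends was not tested. The strongest fold in Gm10925 was 5.11, 10.0 and 3.81 in KO 1, 2 and 3 and 19.6, 14.1 and 15.3 in controls 1, 2 and 3, with all KO values below all control values. In Gm10222 it was 6.37, 8.46 and 3.70 in KO 1, 2 and 3 and 12.1, 10.0 and 9.70 in controls 1, 2 and 3, in the same order. Counted by region and not by gene, 16.2% of the 402 regions called in all 6 libraries had that order and 2.74% the opposite.

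Nuclear genes for mitochondrial RNA modification and processing were called at about the rate of other genes. Of 45 such genes, 12 (26.7%) had a summit in at least 1 library, beside 26.2% of the 21900 protein-coding genes and 13.3% of all 49997 annotated genes. None of the 45 had a summit in all 6 libraries. Their number was 4, 7 and 1 in KO 1, 2 and 3 and 4, 3 and 2 in controls 1, 2 and 3, which overlapped. The m1A methyltransferase genes Trmt10c and Trmt61b, and Hsd17b10 and Prorp, which join Trmt10c in mitochondrial RNase P, had none. Alkbh3, an m1A demethylase, was called in KO 2 and 3 with folds of 8.20 and 7.16 and in controls 1 and 2 with 5.54 and 8.59. Rexo2, an exoribonuclease that clears short mitochondrial RNAs, was called in KO 1 and 2 with folds of 9.76 and 5.73 and in control 2 with 5.90. Twnk, the mitochondrial DNA helicase, was called in KO 1 and 2 alone (5.66 and 6.85), and Fastk, a regulator of the ND6 transcript, in controls 2 and 3 alone (4.77 and 8.94). Trit1 and Ssbp1 were called in 2 libraries each, and Alkbh7, Lrpprc, Grsf1, Tbrg4, Fastkd5 and Mterf1a in 1 each.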

How the data were processed

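Each of the 6 deposited lists holds the MACS2 peaks of a single pull-down, compared with the matching input and kept at a q-value of 0.01, per the file headers. HISAT2 2.1.0, cutadapt 2.8, MACS2 2.2.6 and the build GRCm38 are listed, per the submitters' processing notes. For every peak the authors gave a pileup (signal: how many tags cover its summit), a fold enrichment (a ratio), and a p-value and q-value as −log10, per the file headers. No counts outside peaks were used, so a missing peak is not a measured absence.

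Summits on MT were assigned to gene spans of RefSeq GRCm38.p6. Shares of bases are over 1 to 15422, the end of the last gene, because the files used here give no length of MT. The local background was taken as (pileup + 1)/fold − 1, and a Poisson p from it came within 2% of the deposited −log10 p-value for all 62 peaks. Values per library were compared with exact two-sided permutation tests over 20 assignments (Python 3.11.15, pandas 2.3.3, scipy 1.17.1). The code was tested on simulated data. Members and lists were chosen with earlier results of these data known; each gene with summits in at least 3 libraries is described with its values. Summits up to 100 bases apart were read as the same place, a choice made after seeing the data.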

Additional observations from a re-analysis of the deposited data

How the results depend on the processing

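Each comparison was recomputed at a −log10 q of at least 5, at a fold enrichment of at least 4, with lists of equal length, without each library, and without control 1 and KO 2 together. Covered bases, gene counts and regions, but not peak numbers or shares, were also recomputed with the chromosome 1 copy added at its mirrored positions, chosen after seeing the data. The difference in mitochondrial peaks, −1.33, ran from −2.5 to 0.5 when a library was left out and changed sign without KO 3. Regions called in all 6 libraries, 3 in the text, ran from 3 to 5 with a library left out, and were 1 at a fold of at least 4 and 5 with the copy added. The KO-only region in the control region was 1 throughout except at a fold of at least 4, where it was 0 because its folds are all lower. Control-only regions, 0 in the text, ran from 0 to 2 with a library left out, with 2 without KO 2, and were 4 without control 1 and KO 2. The causes of the other changes were not tested. Differences in the share of peaks, covered bases and mRNA genes kept their sign under every alternative run, with exact permutation p from 0.1 to 0.9, 0.3 to 1 and 0.2 to 0.6. With the replicate number as a block, the exact p for the share of peaks was 0.25, the smallest that block allows, beside 1, 1 and 0.5 for peaks, covered bases and genes. Same-numbered deviations in called bases correlated at 0.154, 0.383 and −0.271. With no values for differently numbered libraries beside them, these cannot show whether the numbers pair the libraries. In 5 libraries the limit of 1 tag per position bounds the pileups and with them the folds, and a missing call carries no counting interval.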
